A study of Homo sapiens with 2 samples.

Results

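A set of 9 miR stems that were higher in multidrug-resistant K562/ADM cells than in parental K562 cells was described name by name. The stems are miR-584, miR-375, miR-184, miR-135b, miR-135a, miR-935, miR-504, miR-653 and miR-383. The rule is worded as few or no reads in K562 and a large rise in K562/ADM, outside large clusters, which not every name met. The names were chosen on the reads of these same libraries. The ratios between the libraries are therefore a description of what was selected, and no test was made on them. A stem is the name without prefix, asterisk, arm and copy suffix, and the 9 stems took 13 of the 934 names in the deposited table. Of these 13 names, 9 carry no asterisk and 4 do. An asterisk on a name spelled miR marks the arm that was taken as the less abundant one when the hairpin was named, which need not hold in a given library. For the names spelled mir (mir-135a-1* and mir-383*), its meaning is not given in the sources.

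K562 cells are an established human line from a chronic myelogenous leukemia and were not treated. K562/ADM is its stable derivative, selected by long exposure to rising doses of adriamycin, an anthracycline that damages DNA, and kept in 1000 ng/mL of the drug. Small RNA was sequenced from 1 library of each line, with 7677738 and 6895193 reads of mature miRs. With 1 library per line there is no replicate check, so the values compare these libraries and not the conditions, and drug selection, culture history and library preparation cannot be told apart.

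MiRs are short RNAs cut from hairpin precursors. The 2 arms of a hairpin can each give a mature miR, and usually the more abundant arm is loaded into the silencing complex, where bases 2 to 8, the seed, pair with target mRNAs. Several of the stems are best known outside blood. MiR-375 is typical of pancreatic islets and other endocrine cells, miR-184 of the eye and brain, and miR-135a and miR-135b form a family known to act on APC, a brake of Wnt signalling.

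The mature sequences are shown first, since they decide which names can share targets and which can share reads. They were taken from the RefSeq table on GRCh38.p14, which held 10 of the 13 names. Each is written from 5′ to 3′ with the seed in capitals.
miR-584: uUAUGGUUugccugggacugag
miR-375: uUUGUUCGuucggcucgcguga
miR-184: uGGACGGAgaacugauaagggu
miR-135b: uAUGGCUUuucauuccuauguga
miR-135a: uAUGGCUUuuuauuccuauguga
miR-135b*: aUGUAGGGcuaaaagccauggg
miR-135a*: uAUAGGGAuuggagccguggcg
miR-935: cCAGUUACcgcuuccgcuaccgc
miR-504: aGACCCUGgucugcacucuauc
miR-653: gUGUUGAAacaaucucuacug
The 10 sequences held 9 different seeds, and the only seed shared by 2 of these 10 names was that of miR-135a and miR-135b. The RefSeq name miR-135a-2-3p, which was not matched to a deposited name, has the seed of miR-135b* and differed from it at 5 of 22 bases. The 3 names without a sequence, mir-135a-1* among them, could not be compared. Among the names matched to RefSeq, no other stem of the deposited table carried any of the 9 seeds. Full-length miR-135b and miR-135a differed at 1 of 23 bases, C11U, counted from the 5′ end with the base of miR-135b first. Compared position by position in the same way, miR-135b* and miR-135a* differed at 15 of 22 bases. They were not aligned, so an offset between their starts counts as differences, and the 15 does not measure how related these arms are. Base composition ranged widely, from 30.4% G and C in miR-135a to 65.2% in miR-935, with a median of 50% over the 10 names and 52.2% over the 2370 mature names of the table. The first base was U in 6 of the 10, against 36.8% of all mature names.

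The hairpins came from 10 genes on 10 chromosomes, and positions are given on GRCh37 with the strand in brackets. Of these, 7 lay in an intron of a gene transcribed from the same strand. MIR584 (chr5:148441876-148441972, minus) is intronic in SH3TC2, MIR135B (chr1:205417430-205417526, minus) in LEMD1 and BLACAT1, and MIR504 (chrX:137749872-137749954, minus) in FGF13, a fibroblast growth factor gene. MIR653 (chr7:93112072-93112167, minus) is intronic in CALCR, the calcitonin receptor gene, and MIR383 (chr8:14710947-14711019, minus) in SGCZ. MiR-135a has 2 genes. MIR135A2 (chr12:97957590-97957689, plus) is intronic in the lncRNA gene RMST, and MIR135A1 (chr3:52328235-52328324, minus) in the lncRNA gene GLYCTK-AS1, where it also lies opposite an untranslated part of an exon of GLYCTK. MIR935 (chr19:54485561-54485651, plus) overlaps the coding sequence of an exon of CACNG8, a calcium channel subunit gene. MIR184 (chr15:79502130-79502213, plus) lies opposite an intron of the lncRNA gene ANKRD34C-AS1, and MIR375 (chr2:219866362-219866431, minus) lies in no other annotated gene.

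Reads were recovered from the deposited values, and ratios of K562/ADM to K562 were formed after scaling each library by the median of ratios. Intervals are exact 95% intervals and cover counting error only. A library without reads was set at a floor of 3 reads, and the fold is then a lower bound at that floor, without counting error in K562/ADM. At least 10-fold higher in K562/ADM were 7 of the 13 names, beside 2.14% of all 934 names, and at least 2-fold higher were 12, beside 15.1%. Nothing is read from these shares, because the names were selected on this contrast. The median log2 ratio was 3.46 over the 13 names and -0.07 over the 764 names with a fold. The first is the value of miR-504 at the floor, and so itself a lower bound. The second lies near equality by construction, because the scaling centres the names with reads in both libraries on equality. Together the 13 names went from 994 to 10316 reads, from 0.0129% (0.0122 to 0.0138) to 0.150% (0.147 to 0.153) of the mature miR reads. MiR-375, miR-184 and both arms of miR-135b made up most of this. The libraries were made from bulk cells, so more RNA per cell and a larger share of cells with the miR cannot be told apart. By stem, miR-375 held 34.1% of the 10316 reads, miR-135b 31% and miR-184 25.8%.

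**Figure D1:**
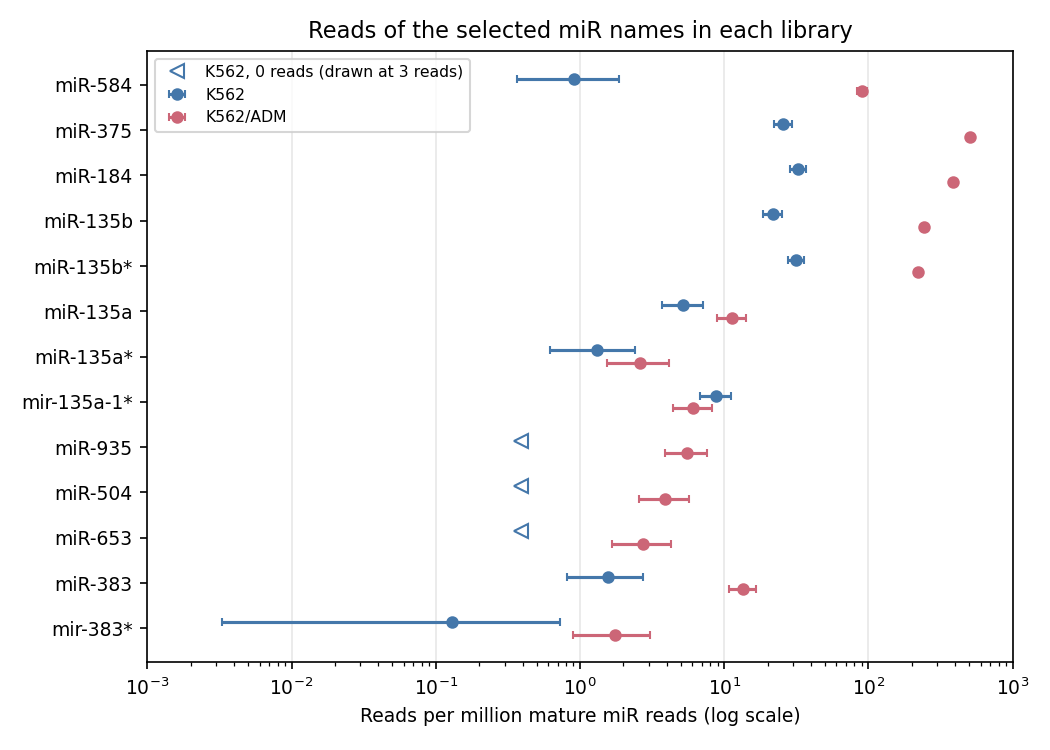
Reads per 1000000 mature miR reads (x axis, log scale) of the 13 names (y axis) in K562 (blue) and K562/ADM (red), with exact 95% Poisson intervals for counting error. Open triangles mark 0 reads in K562 and are drawn at 3 reads. The intervals of the 2 libraries overlap for miR-135a* and mir-135a-1*, and mir-135a-1* alone has its K562/ADM point to the left.

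MiR-584 had the widest difference of the set. Its 7 reads in K562 (95% Poisson interval 2.81 to 14.4) became 621 in K562/ADM (573 to 672), which is 0.912 and 90.1 reads per 1000000 mature miR reads (rpm). Its rank by reads moved from 557 to 133 among the 934 names. The ratio was 109 (95% interval 52.4 to 271), and its width comes from the 7 reads in K562. The 11 other names with 7 reads in K562 had 0 to 10 reads in K562/ADM, with a median of 2.

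MiR-375, miR-184 and miR-135b were not rare in K562, although the set was described as having few or no reads there. MiR-375 had 196 reads in K562 (25.5 rpm) and 3513 in K562/ADM (509 rpm), and its rank moved from 243 to 69. The ratio was 21.9 (19 to 25.5). MiR-184 had 251 and 2657 reads, or 32.7 and 385 rpm, and moved from rank 223 to 76 with a ratio of 13 (11.4 to 14.8). MiR-135b had 167 and 1669 reads, or 21.8 and 242 rpm, and moved from rank 260 to 91 with a ratio of 12.2 (10.4 to 14.4). Among other names of like K562 abundance, the 3 nearest to miR-375 (196 to 198 reads) had 111 to 847 reads in K562/ADM, the 3 nearest to miR-184 had 179 to 1001 and the 3 nearest to miR-135b had 3 to 626. These few names give a range only and do not show what is typical at that abundance. Others outside the set were as high, such as miR-3681 with 364 reads in K562 and 5530 in K562/ADM (ratio 18.6), and a name with 238 to 243 reads in K562 that reached 1971. The intervals of miR-184 and miR-135b overlapped, so the order of their ratios was not resolved by counting, whereas the interval of miR-375 lay above both.

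**Figure D2:**
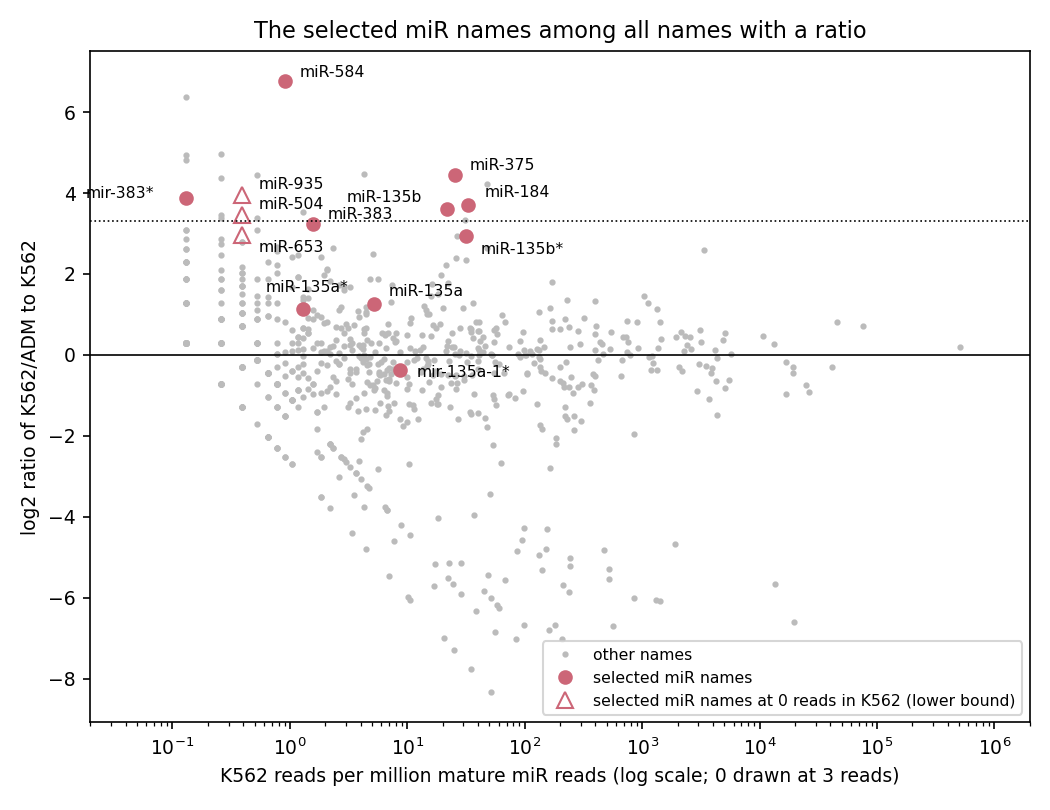
Log2 of the K562/ADM to K562 ratio on the y axis, plotted against K562 reads per 1000000 mature miR reads (x axis, log scale, with 0 drawn at 3 reads). Grey points are other names with a fold, red points the 13 names, and open triangles the 3 names without K562 reads at their lower bound. The solid line marks equality and the dotted line 10-fold. MiR-375, miR-184 and miR-135b lie above the 10-fold line, as do some grey points, while miR-135a, miR-135a* and mir-135a-1* lie within the grey cloud.

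Both arms of the miR-135b hairpin were higher in K562/ADM. MiR-135b* went from 243 to 1529 reads, a ratio of 7.71 (6.73 to 8.86), which lay wholly below the interval of miR-135b. The 3 other names nearest to it in K562 had 203 to 1971 reads in K562/ADM, with a median of 1001. They are too few to show what is typical. The arm with the asterisk was the more abundant one in K562, with 59.3% of the 410 reads of both arms (Clopper-Pearson 54.3 to 64.1). In K562/ADM it held 47.8% of 3198 reads (46.1 to 49.6), so the order of the arms was turned. This arm share does not depend on the scaling of the libraries. The log2 change of the ratio of asterisk to main reads was -0.67 for miR-135b. This change was compared with 54 other hairpins that had at least 50 reads for each arm, summed over both libraries. Their median change was -0.25, with quartiles of -0.72 and 0.19, and 14 of them moved further down than miR-135b. Some had few reads in 1 library. An example is miR-154, with 3 main reads and 1 asterisk read in K562/ADM, whose change of -2.24 was the lowest. The shift was thus within the middle range of the 54 hairpins compared, although it was wider than counting error.

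MiR-135a, which has the same seed, moved far less than miR-135b. It went from 40 to 78 reads, a ratio of 2.39 (1.61 to 3.59), which lies wholly below the interval of miR-135b. MiR-135a* went from 10 to 18 reads, and the ratio was 2.20 (0.965 to 5.34), whose interval holds 1. The name mir-135a-1* went from 67 to 42 reads, with a ratio of 0.768 (0.509 to 1.15), and was the only name of the set with a lower scaled value in K562/ADM, a direction that turned to 1.28 under upper-quartile scaling. Set beside miR-135a, mir-135a-1* took 62.6% of the reads of both names in K562 (52.7 to 71.8) and 35% in K562/ADM (26.5 to 44.2). MiR-135a* took 20% (10 to 33.7) and 18.8% (11.5 to 28). MiR-135a reads can come from 2 genes, so these are not arm shares of a single hairpin. Summed over its 3 names, miR-135a went from 117 to 138 reads, with a ratio of 1.44 (1.12 to 1.86). MiR-135a therefore did not meet a large rise as the rule words it. It is in the set as a listed member, and the reason for its listing is not given.

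Reads of miR-135a and miR-135b could not be told apart with certainty, since the mature forms differ at a single base and the sources do not say how many mismatches the mapping allowed. Of the reads of both names, miR-135a took 19.3% in K562 (40 of 207, interval 14.2 to 25.4) and 4.46% in K562/ADM (78 of 1747, 3.54 to 5.54). Without scaling of the libraries, the 38 reads that miR-135a gained equal 2.53% of the 1502 gained by miR-135b. Whether they came from miscalled miR-135b reads was not tested. With both names summed the ratio was 10.3 (8.94 to 12), just below the lower limit of 10.4 for miR-135b alone.

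**Figure D3:**
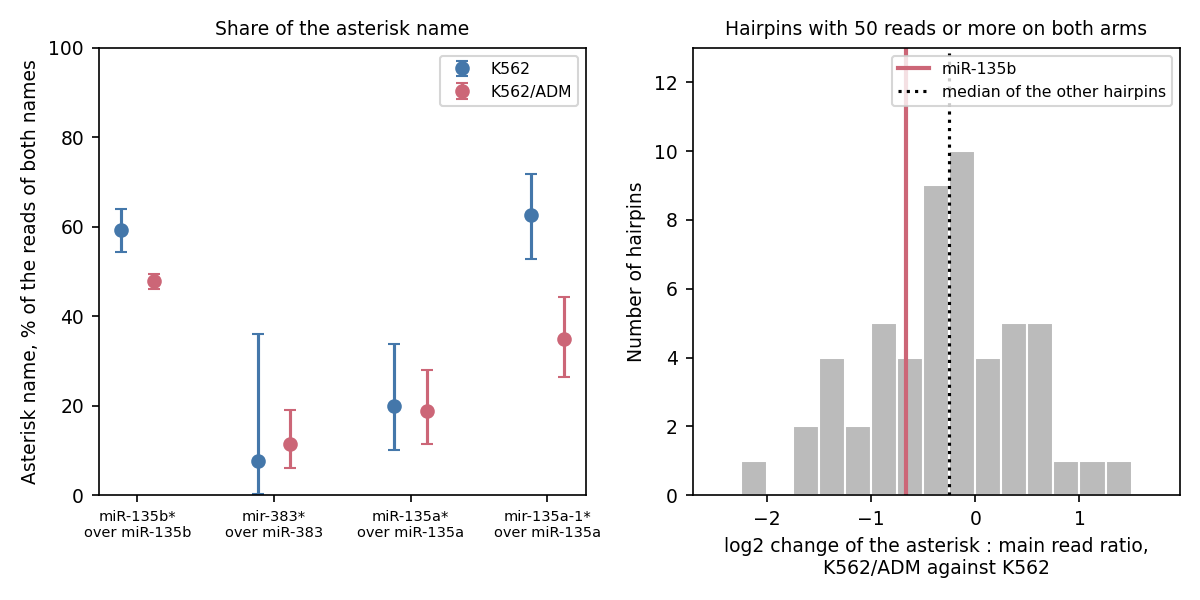
Left, share of the asterisk name among the reads of both names (y axis, percent) in K562 (blue) and K562/ADM (red), with exact 95% Clopper-Pearson intervals. Right, number of hairpins (y axis) by the log2 change of the ratio of asterisk to main reads between the libraries (x axis). It shows the 54 other hairpins listed as a name and its asterisk name. Each had at least 50 reads for each arm, summed over both libraries, and no arm without reads in a library. The red line, miR-135b at -0.67, lies left of the dotted median at -0.25 with 14 hairpins further to the left.

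MiR-935, miR-504 and miR-653 had no reads in K562. MiR-935 had 38 reads in K562/ADM (Poisson interval 26.9 to 52.2), or 5.51 rpm, and was at least 15.5-fold higher at the floor of 3 reads, with a lower limit of the exact interval of 12-fold. MiR-504 had 27 reads (17.8 to 39.3), or 3.92 rpm, and was at least 11.0-fold higher at the floor, with a lower limit of 8.36-fold. MiR-653 had 19 reads (11.4 to 29.7), or 2.76 rpm, and was at least 7.76-fold higher at the floor, with a lower limit of 5.71-fold. The Poisson intervals of neighbours in this order overlap. Overlap is no test of a difference, and the 3 names were not compared with each other directly. The floor of 3 reads equals 0.391 rpm in K562, and the exact Poisson interval of a count of 0 reaches somewhat higher, to 3.69 reads. These were also the 3 names with the most K562/ADM reads among the 106 names without reads in K562, and the other 103 reached 17 reads at most, with a median of 1. All of them were scarce in K562/ADM too, at ranks 323, 364 and 413.

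Sequences seen once in a library were left out by the authors before mapping. Names with 1 read are still listed, so what this step removed from rare names cannot be read from the table, and its part in the 0 counts was not tested.

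MiR-383 went from 12 reads in K562 (6.20 to 21.0) to 93 in K562/ADM (75.1 to 114), a ratio of 9.49 (5.18 to 19). It was the name nearest below 10-fold. The 6 other names with 12 reads in K562 had 5 to 21 reads in K562/ADM. Its partner mir-383* went from 1 to 12 reads, a ratio of 14.7 (2.17 to 628), so the fold of the partner is hardly known. The asterisk name took 7.69% of the reads of both in K562 (0.195 to 36) and 11.4% in K562/ADM (6.05 to 19.1), which overlap. The summed reads of the stem were 13 and 105, a ratio of 9.89 (5.54 to 19.2).

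The intervals differed widely in what they allow. The whole interval lay above 10-fold for 5 of the 13 names (miR-584, miR-375, miR-184, miR-135b and miR-935), beside 0.857% of all names. The interval held 1 for miR-135a* and mir-135a-1*. The counts were also formed under other scalings. Upper-quartile scaling raised every ratio 1.67-fold, so that 10 names were at least 10-fold higher, beside 4.07% of all names. The share of higher names among all names past 2-fold went from 44.2% to 73.1%. On the log2 scale the ratios fell by 0.14 under total-count scaling and by 0.12 under miR-425 scaling. They fell by 0.10 with 14q32 left out of the median of ratios. Each of these scalings gave a 10-fold count of 7, beside 1.82% of all names.

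**Figure D4:**
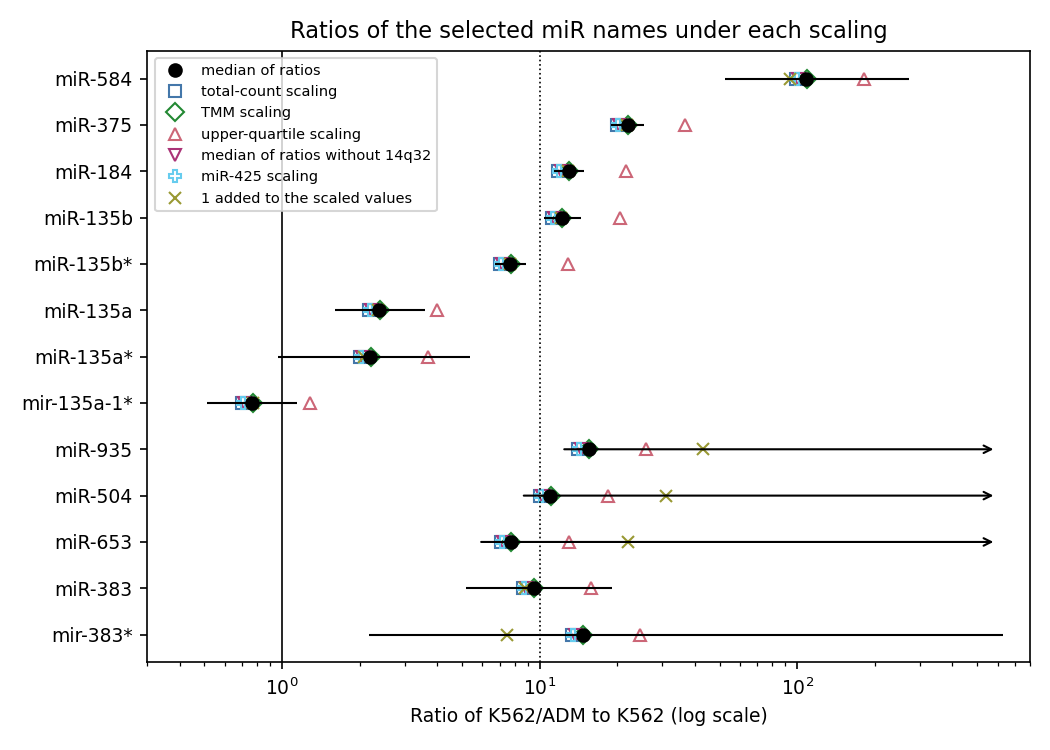
Ratio of K562/ADM to K562 (x axis, log scale) of the 13 names (y axis). Filled circles are the median-of-ratios values with exact 95% counting intervals (arrows where there is no upper limit), and other symbols are the other scalings or 1 added to the scaled values. The solid line marks equality and the dotted line 10-fold. Upper-quartile scaling, the triangles, lies to the right for each name and takes mir-135a-1* from 0.768 to 1.28.

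Whether the stems stand alone in the genome was checked by position. Within 10 kb of the 10 hairpins 1 had another listed miR name, and 6 had none within 250 kb. The exception was MIR653, which lies 1.08 kb from MIR489 in CALCR, so miR-653 is not solitary. MiR-489 went from 4 to 34 reads, a ratio of 10.4 (3.71 to 40.4), and both names of this locus were thus higher in K562/ADM, each from few reads. Between 10 and 250 kb, let-7g, 25.9 kb from MIR135A1, went from 1145 to 685 reads, with a ratio of 0.733 (0.665 to 0.806). MiR-3131, 57.0 kb from MIR375, had 10 and 11 reads. MIR935 lies 194 kb from MIR373 and beside the miR clusters of 19q13, and the 5 names listed there within 250 kb summed to 6 reads in K562 and 6 in K562/ADM. No neighbour apart from miR-489 reached 10-fold.

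The levels of miRs typical of particular tissues were set beside these values, because several stems are known from tissues other than blood. Of 8 blood miRs, 6 were listed, and all 6 were within 2-fold with a median log2 ratio of 0.01. MiR-142-3p, typical of blood cells in general, had 351692 and 507475 reads (ratio 1.77, 1.76 to 1.77) and miR-451, of red cell precursors, had 30470 and 19738 (0.793, 0.779 to 0.808). The blood list went from 5.41% to 8.04% of the reads. This rise follows miR-142-3p, which held most of the 415541 and 554667 reads of the list, and does not show what the other names did. Of 21 miRs typical of other tissues, 17 were listed, of which 6 were at least 2-fold higher and 2 at least 2-fold lower, beside 15.1% and 19.1% of all names, with a median log2 ratio of 0.35. None reached 10-fold. The list took 0.551% (K562) and 0.413% (K562/ADM) of the reads, and 10 of the 17 had fewer than 10 reads in K562. MiR-7 held most of the 42278 reads of the list in K562, and miR-9 most of the 28475 in K562/ADM. The lower share thus follows miR-7 and does not show what the other names did. Apart from miR-9, the higher ones (miR-1, miR-129-5p, miR-200a, miR-216a and miR-124) had at most 10 reads in K562. MiR-9 of neural tissue had 7976 and 17882 reads (2.75, 2.67 to 2.82), while miR-7, found with miR-375 in islets, had 33251 and 9701 (0.357, 0.349 to 0.365) and was the first of the 2 lower names. The other was miR-203 of epithelium with 66 and 18 reads (0.334, 0.187 to 0.569), while miR-141, also of epithelium, had 893 and 743 (1.02, 0.923 to 1.12). MiR-133a and miR-206 of muscle were at 0 in K562 and had 1 read each in K562/ADM, and miR-205 of epithelium had 1 and 0. The part of other cell types in the values of the 13 names was not tested.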

How the data were processed

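Small RNA of K562 and K562/ADM cells, 1 library each, was sequenced. The authors condensed the reads to unique sequences, left out those seen once, and ran miRanalyzer at default parameters on the rest, which uses Bowtie, against miRBase 16. Per the labels, CASAVA 1.7.0, DESeq and the build hg18 were also used. The deposited signal is the read count of a mature name divided by the DESeq size factor of its library. The columns of fold, log2 fold and p-values, which hold the authors' own comparison, were not used.

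The smallest value above 0 of a column was taken as 1 read, and every value of that column was divided by it, which gave whole numbers for 100% of the values within 0.001. With 1 library per line and so no residual degrees of freedom, no replicated count model was fitted and no p-value was formed. The median of ratios served for scaling. Ratios were given exact 95% intervals (Clopper-Pearson) and reads exact Poisson intervals, which cover counting error only. A library at 0 was set at 3 reads, and no fold was formed where the other library had 3 reads or fewer, which left out 170 of 934 names.

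The members and lists were chosen with earlier results of these data known. The text names all 13 names, names that share a seed or lie within 10 kb, up to 4 names of each tissue list with the most reads, and the 10 other names of highest ratio with at least 10 reads in K562/ADM. The other tissue miRs and the neighbours beyond 10 kb were named after their values were seen. Deposited names were matched by hand to RefSeq arms, and each matched sequence was found in its GENCODE hairpin on GRCh37, the build the study used for its chromosome map. Intervals were run on simulated Poisson counts with set ratios. These hold no variation beyond counting, so the run checks the computation only. TMM and upper-quartile factors came from edgeR 4.0.16 in R 4.3.3. All else was run in Python 3.11.15 with scipy 1.17.1, numpy 2.4.6, matplotlib 3.10.9 and pandas 2.3.3. Alternatives were other scalings, read minimums of 10 and 50, 1 added to the scaled values, calls by the whole interval and reads summed by stem.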

Additional observations from a re-analysis of the deposited data

How the results depend on the processing

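No paired analysis was possible because each line has 1 library, and no replicate could be left out. Of the 13 names, 7 were at least 10-fold and 12 at least 2-fold higher. The first alternatives were the other scalings, 1 added to the scaled values, a minimum of 10 reads and calls by whole intervals. Under these the counts stayed within 1.5 times, at 5 to 10 names and 10 to 12. With reads summed by stem the unit changes. Then 5 and 8 of the 9 stems were past these folds, beside 2.84% and 19.4% of all 599 stems. A minimum of 50 reads keeps 8 of the 13 names and 429 of all names. The counts were then 4 and 7, beside 2.56% and 14.5% of the names kept. The share of all names at least 10-fold higher, 2.14%, was 4.07% under upper-quartile scaling, 3.31% at a minimum of 10 reads and 0.857% by whole intervals. The share at least 2-fold higher, 15.1%, was 32.7% under upper-quartile scaling, 23.9% with 1 added and 6.53% by whole intervals. Upper-quartile scaling gave 305 higher and 112 lower names past 2-fold in place of 141 and 178. Without miR-378, the most abundant name, the total is smaller by construction, and the share of the 13 names was 0.0262% (K562) and 0.319% (K562/ADM). Of 79 single ratios under alternatives 72 stayed within their counting interval and 7 left it, 6 of them under upper-quartile scaling and 1 where miR-135a and miR-135b were summed, an alternative chosen after the data were seen. The intervals of miR-935, miR-504 and miR-653 have no upper limit and that of mir-383* is wide, so these could hardly be left. With 1 added to the scaled values miR-935 was 43.1, miR-504 30.9 and miR-653 22.0, and mir-383* was 7.5, so that the 10-fold count of 7 took in miR-653 and lost mir-383*. The few reads in K562 limit the folds of miR-584, mir-383*, miR-935, miR-504 and miR-653.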

Other observations

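Other names had ratios as high and are not among the 13. At least 10-fold higher were 13 further names, so that 7 of 20 such names belong to the set described. Of the 10 with the highest ratio and at least 10 reads in K562/ADM, 2 were well covered in both libraries. MiR-3681 had 364 and 5530 reads (ratio 18.6, 16.7 to 20.7), more than any of the 13 names in K562/ADM, and its partner miR-3681* had 2 and 51 reads (31.2, 8.21 to 265). MiR-3117 had 33 and 600 reads (22.3, 15.7 to 32.6). MiR-514, miR-508-3p and miR-509-3p, which come from a single miR cluster on chromosome X, had 1, 2 and 2 reads in K562 and 68, 34 and 18 in K562/ADM. MiR-488 had 1 and 25 reads, miR-1269 had 1 and 23, miR-202* had 4 and 71, and miR-149 had 10 and 95. The lower limits of the intervals of these 7 names ran from 2.64-fold for miR-509-3p to 14.5-fold for miR-514. With 1 library per line, none of these ratios has a replicate check.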
